A study of Mus musculus with 6 samples.

Results

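Potassium channel genes, whose mouse symbols begin with Kcn, were followed through aortas of ApoE KO and C57BL6 mice fed a high-fat diet. They were taken as all probes whose deposited gene symbol begins with Kcn, which gave 94 of 25966 symbols and 125 of 39556 probes on the array, and all 125 had a value on every array. Each of the 6 arrays carried the RNA of an aorta in the Cy5 channel and a common reference in the Cy3 channel, labelled as C57BL6 controls on the same diet. Of the aortas, 3 came from ApoE KO mice labelled 32 weeks old, which lack apolipoprotein E and, per the labels, had atherosclerotic lesions. The other 3 came from C57BL6 mice labelled 24 weeks old, without lesions. The labels give both groups and the reference a high-fat diet, begun at 8 weeks of age and continued for 16 weeks per the growth protocol, which does not match the age given for the knockouts. The Cy5 channel of all 6 samples is also labelled with a C57BL6 db/+ background, so that any allele at the db locus would be carried by both groups. Their source names give a younger age than the age label, and C57BL6 replicates 2 and 3 share 1 source name. Array headings that name neither strain mention 24 weeks on the diet and treatment with vehicle. Genotype, age, diet length and vehicle therefore cannot be told apart here. The labels call the samples biological replicates and do not say whether aortas were pooled.

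Potassium channels let K+ leave the cell and so pull the membrane towards negative voltages. In arterial smooth muscle this closes voltage-gated calcium channels and relaxes the vessel, and the current comes mainly from voltage-gated Kv channels, the large-conductance calcium-activated BK channel, ATP-sensitive channels and inward rectifiers. In leukocytes the same outward current sustains calcium entry, and K+ loss is a trigger of the inflammasome.

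Values are log2 ratios of an aorta's RNA to the reference, so that 0 means equal signal, and fold changes are ApoE KO over C57BL6 with the standard error of the limma fit over all 39362 probes with complete values (n = 3 per group). A probe was called at a Benjamini-Hochberg adjusted p under 0.05. Reference intensity, in arbitrary units, is the mean Cy3 signal of the 3 arrays whose headings name C57BL6. It says how well a probe was measured and does not rank genes against each other. The potassium channel probes were mostly dim, with a median reference intensity of 0.117 and a range of 0.03 to 8.92. Of the 125 probes, 53 lay under 0.1, 19 lay at 0.5 or above, and 10 had the same value on all 6 arrays. Intensities were deposited in steps of 0.01, and the 3 C57BL6 values were exactly 0 for 40 of the probes. A call is therefore described as a change only where the groups differed by at least 3 such steps, and the fit was repeated on the 9485 probes with a reference intensity of at least 0.5. Apoe itself, the targeted gene, read -1.31, -1.21 and -1.31 in ApoE KO aortas, against 0.00, -0.32 and 0.12 in C57BL6 aortas.

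Among the potassium channel probes, 8 were called higher and 10 lower in ApoE KO aortas, which is 14.4% of them. Over all probes 14.1% were called, so the share was near the background, and by direction 6.44% of all probes were called higher and 7.62% lower. With at least 3 rounding steps between the groups, 12 probes of 11 genes remained (9.6%, against 10.5% of all probes). Higher were 5 probes (background 5.43%) of 4 genes, Kcnk13, Kcnn4, Kcnk6 and Kcnj10. Lower were 7 probes (background 5.03%) of as many genes, among them Kcnc4, Kcnab1, Kcnmb1, Kcnn1 and Kcnj8. The groups did not overlap for 36 probes (28.8%), beside 28.4% of all probes. The median log2 fold change was -0.03 over the 125 probes and -0.019 over all probes. Of the 19 probes with a reference intensity of at least 0.5, 2 were called higher and 8 lower in the fit over such probes, 52.6% against 43.0% of all probes of that intensity. Of those 9485 probes, 18.2% were higher and 24.9% lower. The groups did not overlap for 12 of the 19 potassium channel probes (63.2%), beside 59.0% of all such probes. Their median log2 fold change was -0.18, against -0.051 over those 9485 probes.

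**Figure D1:**
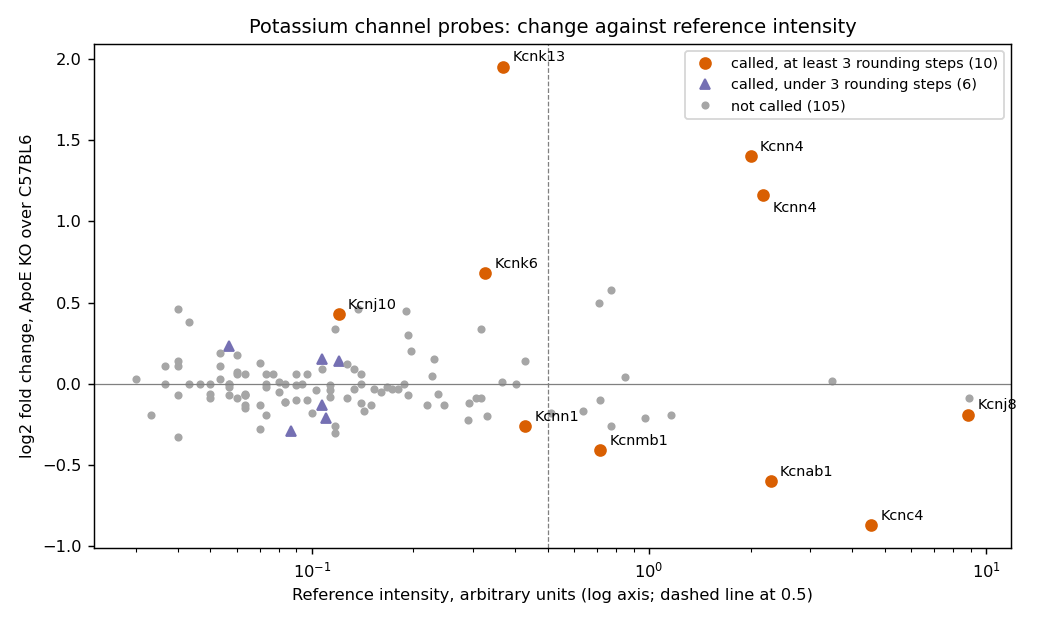
Each point is 1 of the 121 potassium channel probes plotted, with its reference intensity in arbitrary units on a log axis and its log2 fold change, ApoE KO over C57BL6, on the vertical axis. The 10 named points were called and differed by at least 3 rounding steps, from Kcnk13 at 1.95 to Kcnc4 at -0.87, and most of the other points lie at an intensity under 0.5.

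By family, the voltage-gated pore subunits made up 55 probes, of which 0 were called higher and 5 lower in limma (9.09%, beside 6.44% higher and 7.62% lower over all probes). Of 24 inward rectifier probes, 1 was called higher and 2 lower. Of 16 tandem-pore (Kcnk) probes, 3 were called higher and 0 lower. Among 16 probes of calcium- or sodium-activated channels and their beta subunits, 3 were called higher and 2 lower, and among 13 probes of accessory subunits of voltage-gated channels 1 was higher and 1 lower. The remaining probe, for the noncoding RNA Kcnq1ot1, read 0 on all 6 arrays. No probe of the Kcnd, Kcne, Kcnf, Kcng, Kcnh, Kcnip, Kcnma, Kcnrg, Kcns, Kcnt, Kcnu and Kcnv subfamilies was called, and of these the Kcnrg, Kcns, Kcnu and Kcnv probes all had a reference intensity under 0.1. These counts include calls under 3 rounding steps, 2 among the voltage-gated pore subunits. The inward rectifiers, tandem-pore channels, calcium- or sodium-activated channels and accessory subunits had 1 such call each. In that order, 12.5%, 18.8%, 31.2% and 15.4% of their probes were called, beside 14.1% of all probes. With so few calls in each family, these counts are a description, and whether the families differ from each other or from all probes was not tested.

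**Figure D2:**
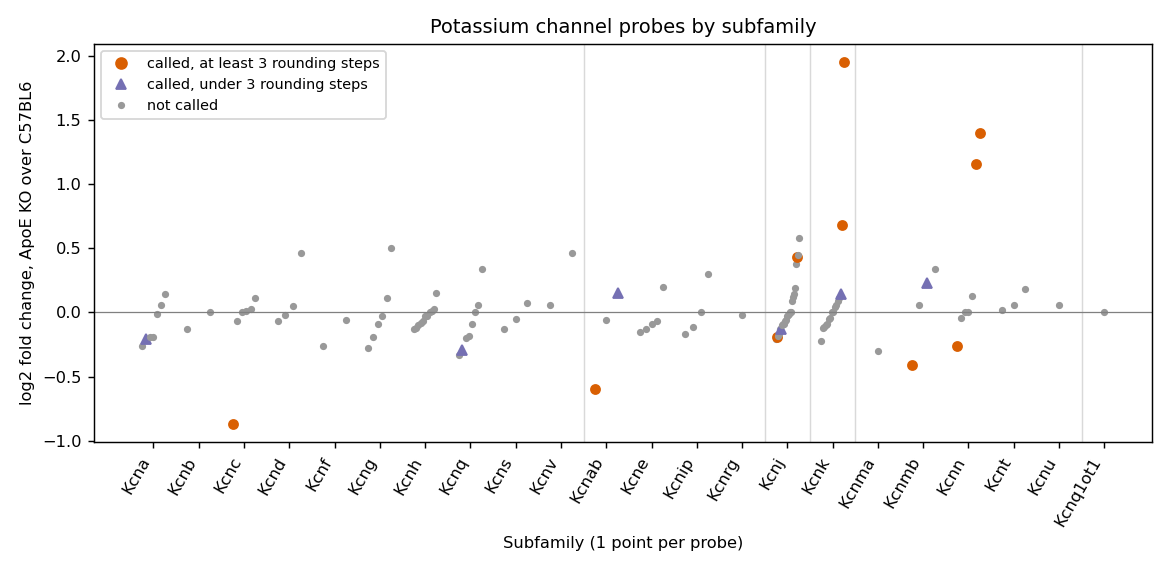
Each point is 1 of the 121 probes plotted, placed by subfamily along the horizontal axis and by log2 fold change, ApoE KO over C57BL6, on the vertical axis, with calls of at least 3 rounding steps as circles and the other 6 calls as triangles. The points above 1 belong to Kcnk13 and Kcnn4, and the voltage-gated subfamilies on the left hold calls below 0 and none above.

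The 250 bases before the annotated start of 4 of the changed genes are shown because Kcnk13 and Kcnn4 rose the most, Kcnc4 fell the most and Kcnmb1 encodes the smooth muscle subunit of the BK channel. The sequences are from RefSeq on GRCm38.p6, written 5′ to 3′ on the gene's strand, with CpG dinucleotides in capitals.
Kcnk13 promoter, chr12:99964249-99964498, plus strand: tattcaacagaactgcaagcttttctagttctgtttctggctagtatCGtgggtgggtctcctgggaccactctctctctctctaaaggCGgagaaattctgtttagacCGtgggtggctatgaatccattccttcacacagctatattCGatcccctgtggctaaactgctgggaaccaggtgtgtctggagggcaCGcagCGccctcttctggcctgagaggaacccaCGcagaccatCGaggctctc
Kcnn4 promoter, chr7:24370013-24370262, plus strand: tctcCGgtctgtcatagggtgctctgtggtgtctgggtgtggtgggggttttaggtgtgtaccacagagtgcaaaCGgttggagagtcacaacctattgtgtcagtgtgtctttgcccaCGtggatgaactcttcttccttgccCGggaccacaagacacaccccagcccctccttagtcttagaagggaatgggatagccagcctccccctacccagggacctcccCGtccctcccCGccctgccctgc
Kcnc4 promoter, chr3:107458899-107459148, minus strand: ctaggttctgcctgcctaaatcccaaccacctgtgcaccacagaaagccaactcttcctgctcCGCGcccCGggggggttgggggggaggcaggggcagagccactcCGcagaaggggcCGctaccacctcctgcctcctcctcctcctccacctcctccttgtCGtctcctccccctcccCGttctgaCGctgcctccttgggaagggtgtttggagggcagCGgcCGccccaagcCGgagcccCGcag
Kcnmb1 promoter, chr11:33962763-33963012, plus strand: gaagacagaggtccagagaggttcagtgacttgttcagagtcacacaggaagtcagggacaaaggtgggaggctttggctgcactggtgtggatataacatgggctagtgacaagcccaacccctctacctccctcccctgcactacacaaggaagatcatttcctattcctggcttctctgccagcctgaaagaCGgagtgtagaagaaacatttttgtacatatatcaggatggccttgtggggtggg

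RefSeq promoters were matched for 8 of the 11 changed genes, 11 promoters in all. The promoters of the rising genes Kcnk13 and Kcnn4 held 8 and 6 CpGs and had a GC content of 52.8% and 58.8%. Those of the falling genes Kcnc4 and Kcnmb1 held 12 and 1 CpGs, with a GC content of 68% and 50.8%. Over 32851 promoters the median was 6 CpGs and 52.4%. The AP-1 motif TGANTCA, the PU.1 motif GAGGAAGT and the CArG box bound by serum response factor, each searched on both strands, had 0 matches in the 11 promoters. Of all promoters in the table, 6.75%, 2.44% and 1.47% held them, in that order.

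Kcnk13, which encodes the tandem-pore background channel THIK-1 known from mouse microglia, was the potassium channel gene with the largest change. Its probe read 2.00, 1.94 and 1.93 in ApoE KO aortas, against 0.00, -0.04 and 0.04 in C57BL6 aortas. All knockout values lay far above all wild type values, and the fold change was 3.88 (log2 1.95 ± 0.0301, adjusted p 0.000164). Its reference intensity was 0.37, under the minimum of 0.5, so that it was not in the fit over brighter probes. A second Kcnk13 probe at 0.103 read 0.00, 0.00 and -0.13 in ApoE KO aortas and 0 on each C57BL6 array, so the change was seen on 1 of 2 probes.

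Kcnn4 encodes the intermediate-conductance calcium-activated channel KCa3.1 of endothelium, T cells, macrophages and proliferating smooth muscle. The probe designed on MMT00017710 read 1.42, 1.39 and 1.36 in ApoE KO aortas, against 0.00, -0.04 and 0.00 in C57BL6 aortas. The one designed on AK010943 read 1.17, 1.17 and 1.13 in ApoE KO aortas, against -0.04, -0.01 and 0.02 in C57BL6 aortas. The knockout values of each probe lay close together and far above the wild type. The fold changes were 2.64 (log2 1.40 ± 0.0221) and 2.24 (1.16 ± 0.021), with adjusted p values of 0.000164 and 0.000198 in limma. Both probes had a reference intensity of at least 2 and the lowest adjusted p values among the brighter potassium channel probes (7.88e-07 and 1.33e-06). The third Kcnn4 probe, at a reference intensity of 0.0467, read 0 on all arrays.

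Kcnk6, encoding the tandem-pore channel TWIK2 that carries K+ out of mouse macrophages ahead of inflammasome activation, also rose. It read 0.79, 0.68 and 0.61 in ApoE KO aortas, against 0.04, 0.00 and 0.00 in C57BL6 aortas. The groups were well apart, with a fold change of 1.6 (log2 0.68 ± 0.0493, adjusted p 0.00242). Kcnj10, the inward rectifier Kir4.1 of glia, read 0.54, 0.36 and 0.39 in ApoE KO aortas and 0 on each C57BL6 array. It passed at a log2 fold change of 0.43 ± 0.0525 (adjusted p 0.0102), but its reference intensity was 0.12, the difference was 4.18 rounding steps, and a second probe at 0.167 read 0 on 5 of the 6 arrays and -0.06 on ApoE KO replicate 3.

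Markers of macrophages moved with these increases. Of 12 macrophage markers 11 were called higher and 0 lower over all probes. The marker not called there, Cd68 (log2 fold change 0.15, adjusted p 0.069), passed in the fit over the brighter probes (0.0306). The median log2 ratio of the 12 markers was 1.55, 1.64 and 1.59 in ApoE KO aortas, against 0.03, -0.16 and 0.05 in C57BL6 aortas. Their summed intensity was 203 to 245 in ApoE KO aortas and 45.7 to 58.7 in C57BL6 aortas. The 8 T cell markers, 3 of them under a reference intensity of 0.1, had 0 calls in limma. The largest log2 fold changes were 0.54 for Cd2 (adjusted p 0.0734) and 0.52 for Cd3g (0.123). The others ran from -0.11 (Cd3d) to 0.15 (Cd8a). The summed intensity was 7.4 to 8.32 in ApoE KO aortas and 6.99 to 7.39 in C57BL6 aortas, set mainly by Thy1 and Cd4. Of 8 endothelial markers, 3 were called higher (Sox17, log2 fold change 0.53, Vwf, 0.47, and Esam, 0.18) and 0 lower over all probes. Pecam1 (-0.03), Cdh5 (-0.02), Tek (0.22), Kdr (0.34) and Tie1 (0.27) were not called there, and Tie1 passed among the brighter probes (adjusted p 0.0101). The sum over the 8 endothelial markers was 9.3 to 10 in ApoE KO aortas and 7.96 to 8.49 in C57BL6 aortas, set mainly by Esam and Tie1. Of 6 fibroblast markers, 2 were called higher (Lum, log2 fold change 1.76, and Col1a1, 0.51) and 1 lower (Serpinf1, -0.46). Pdgfra (-0.04), Dpt (-0.07) and Dcn (0.44) were not called over all probes, and the median of the 6 was 0.20. The sum over the 6 was 261 to 288 in ApoE KO aortas and 142 to 162 in C57BL6 aortas. Bright probes such as Lum and Col1a1 weigh most in it. The part of these cells in the rise of the channel genes was not tested. In whole aortas, more cells of a type and more RNA per cell cannot be told apart.

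Kcnc4, encoding the fast-inactivating channel Kv3.4, fell the most. It read -0.89, -0.76 and -1.03 in ApoE KO aortas, against 0.02, -0.18 and 0.06 in C57BL6 aortas. The groups were clearly separated, and it was 1.82-fold lower (log2 -0.87 ± 0.102, adjusted p 0.00913). Kcnab1, whose protein is a beta subunit of Kv1 channels, read -0.58, -0.77 and -0.67 in ApoE KO aortas, against 0.00, 0.08 and -0.28 in C57BL6 aortas. C57BL6 replicate 3 came nearest to the knockouts, and the difference of 1.52-fold (log2 -0.60 ± 0.115) had an adjusted p of 0.0356 over all probes and 0.00209 over the brighter ones.

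**Figure D3:**
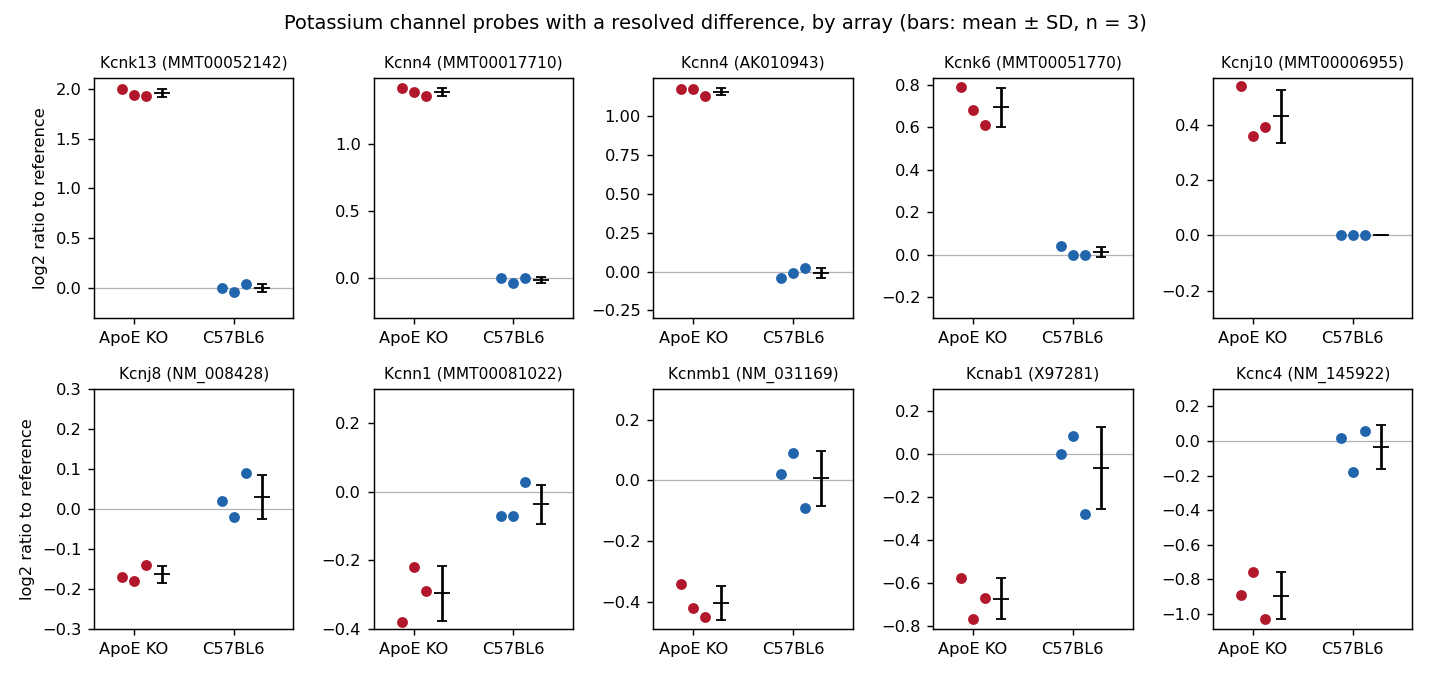
Log2 ratio to the reference on each array for 10 potassium channel probes called with a difference of at least 3 rounding steps, ApoE KO at left and C57BL6 at right, with mean and SD (n = 3) as bars beside the points, titled by symbol and probe accession, with a vertical scale of its own for each probe. ApoE KO points lie above C57BL6 points in the first 5 panels and below them in the other 5, with no overlap.

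The BK channel pairs a pore, Kcnma1, with the beta subunit Kcnmb1, which in smooth muscle tunes the pore to calcium sparks. Kcnmb1 read -0.34, -0.42 and -0.45 in ApoE KO aortas, against 0.02, 0.09 and -0.09 in C57BL6 aortas. It was 1.33-fold lower (log2 -0.41 ± 0.0571, adjusted p 0.0147 over all probes and 0.00103 over the brighter ones). The Kcnma1 probe was dim, with a reference intensity of 0.117, and read -0.29, -0.35 and -0.26 in ApoE KO aortas, against 0.00, 0.13 and -0.14 in C57BL6 aortas. These groups did not overlap either, but the difference of 2.16 rounding steps did not pass (adjusted p 0.0747) except at a reference intensity of at least 0.1 (0.0349), with array weights (0.028) and without C57BL6 replicate 3 (0.0344). The neuronal beta subunit Kcnmb4 was at -0.05, -0.09 and 0.00 in ApoE KO aortas, against -0.25, -1.09 and 0.18 in C57BL6 aortas, where replicate 2 stood apart.

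Kcnj8 encodes Kir6.1, the pore of the vascular ATP-sensitive channel, and had one of the highest reference intensities of the family (8.85). It read -0.17, -0.18 and -0.14 in ApoE KO aortas, against 0.02, -0.02 and 0.09 in C57BL6 aortas. The separation was narrow but complete, and the transcript was 1.14-fold lower (log2 -0.19 ± 0.0325, adjusted p 0.0259 over all probes and 0.00985 over the brighter ones). Its partner Abcc9, the sulfonylurea receptor SUR2, was at a log2 fold change of -0.14, and its groups did not overlap either. It did not pass (adjusted p 0.183 over all probes and 0.0662 over the brighter ones). Kcnn1, a small-conductance calcium-activated channel, read -0.38, -0.22 and -0.29 in ApoE KO aortas, against -0.07, -0.07 and 0.03 in C57BL6 aortas. Its groups did not overlap, and it was called at -0.26 ± 0.054 (adjusted p 0.0437).

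In the fit over the 9485 brighter probes, Kcnn4, Kcnc4, Kcnab1 and Kcnmb1 passed under every alternative in which they were tested there. Kcnj8 lost its call there only after quantile normalization (adjusted p 0.283). Over all probes the decreases were less stable. Leaving out 1 array ended the call of Kcnab1 without any of ApoE KO replicates 1, 2 and 3 or C57BL6 replicates 1 and 2 (adjusted p 0.0889 to 0.125), of Kcnmb1 without ApoE KO replicate 2 or 3 or C57BL6 replicate 1 (0.0578 to 0.0632), of Kcnj8 without any ApoE KO replicate or C57BL6 replicate 1 (0.0728 to 0.0976) and of Kcnn1 without any 1 array (0.0526 to 0.139). Kcnn1 also lost its call with trend and robust eBayes (0.0533). Quantile normalization over all probes ended the calls of Kcnab1, Kcnmb1, Kcnj8 and Kcnn1 (0.121 to 0.458) and left 6 potassium channel probes called higher and 3 lower. It put Kcnk13 at a log2 fold change of 1.26 and the brighter Kcnn4 probes at 0.93 and 0.81, all still called.

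Most contractile smooth muscle markers moved with the decreases. Of 10 such markers, 7 were called lower and 0 higher over all probes. Not called were Myocd (log2 fold change -0.42, adjusted p 0.107), Synm (0.03, at a reference intensity of 1.12) and the dim Des (0, at 0.0433). The median log2 ratio of the 10 markers was -0.49, -0.59 and -0.59 in ApoE KO aortas, against 0.04, 0.06 and -0.01 in C57BL6 aortas. Their summed intensity was 390 to 444 in ApoE KO aortas and 646 to 693 in C57BL6 aortas. The median log2 fold change of the markers was -0.62, beside -0.87 for Kcnc4, -0.60 for Kcnab1, -0.41 for Kcnmb1 and -0.19 for Kcnj8. Whether less smooth muscle accounts for the decreases was not tested.

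Kcna5 and Kcnq1 were not called over all probes but passed among the brighter ones. Kcna5, the delayed rectifier Kv1.5, read -0.37, -0.25 and -0.11 in ApoE KO aortas, against -0.04, -0.04 and 0.13 in C57BL6 aortas (log2 fold change -0.26, adjusted p 0.147 over all probes and 0.0288 over the brighter ones). That call was lost after quantile normalization (0.345) and without ApoE KO replicate 1 (0.0945) or 2 (0.0725). The brightest of 4 probes for Kcnq1, the channel Kv7.1, was at -0.18 with an adjusted p of 0.0834 over all probes and 0.0261 over the brighter ones, lost after quantile normalization (0.43) and without ApoE KO replicate 1 (0.0866) or 3 (0.0966). It also passed at a reference intensity of at least 0.1 (0.0426) and with array weights over all probes (0.0456). A dimmer Kcnq1 probe on MMT00016958 was at 0.34 (adjusted p 0.0901, and 0.0424 at that lower minimum), so the probes of this gene differed in sign.

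Other well-measured channels were not called. Kcne4, an accessory subunit of voltage-gated channels that had the highest reference intensity of the family (8.92), read -0.06, -0.25 and -0.06 in ApoE KO aortas, against -0.01, 0.10 and -0.18 in C57BL6 aortas. The groups overlapped, and the 95% interval of its log2 fold change ran from -0.35 to 0.17. Kcnt2, the sodium-activated channel Slick, was at 0.02 (interval -0.17 to 0.21) on its brighter probe, and Kcnk3, the acid-sensitive channel TASK-1 that brown fat also expresses, at 0.04 (-0.11 to 0.19). Kcna6, the Kv1.6 subunit, was at -0.19 (-0.42 to 0.04) and passed among the brighter probes only with array weights (adjusted p 0.0491). The intervals of Kcne4 and Kcna6 include a decrease of the size seen for Kcnj8. Kcnj4, the inward rectifier Kir2.3 (-0.10), and Kcnip3, a calcium-binding partner of Kv4 channels (-0.17), were not called either, although among the brighter probes both passed with array weights (adjusted p 0.0342 and 0.0212) and Kcnip3 also without C57BL6 replicate 2 (0.0452).

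Several channels with known roles in vessels or leukocytes had dim probes. Kcna3, the Kv1.3 channel of T cells and macrophages, had a reference intensity of 0.09 and read 0 on 4 of the 6 arrays. Kcnj2, the inward rectifier Kir2.1, read 0.32, 0.22 and 0.58 in ApoE KO aortas and 0 on each C57BL6 array at a reference intensity of 0.0433. This was 1.29 rounding steps, and it passed only without ApoE KO replicate 3 (adjusted p 0.032, against 0.0863 with all arrays). Kcnk2 read 0 on all arrays at 0.0433, and the probes of Kcna2, Kcnj12 and Kcnk1 lay at 0.05 to 0.06. None of the probes for Kcnd1, Kcnd3, Kcne1, Kcne3, Kcnh2, Kcnk5, Kcnn2 and Kcnn3 was called. Their reference intensities were under 0.5. Those of Kcnh2 (0.367), Kcnd1 (0.227), Kcne3 (0.197), Kcnn2 (0.187) and the brighter Kcnd3 probe (0.193) lay in the range of the called Kcnk13, Kcnk6 and Kcnj10 probes. Kcne3 read 0.38, 0.07 and 0.14 in ApoE KO aortas and 0 on each C57BL6 array, a difference of 2.85 rounding steps (adjusted p 0.26). The 6 calls with under 3 rounding steps were Kcnab2 (0.15), Kcnk18 (0.14) and Kcnmb2 (0.23) on the higher side and Kcna1 (-0.21), a Kcnj6 probe (-0.13) and a Kcnq5 probe (-0.29) on the lower. All 3 C57BL6 values were exactly 0 for each of them, and their sizes of 0.889 to 1.59 steps are not resolved. Of the 24 symbols with more than 1 probe, 6 had called and uncalled probes, among them Kcnk13, Kcnn4, Kcnj10, Kcnj6 and Kcnq5.

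Some channels differed widely among the knockout arrays themselves. Among probes with a reference intensity of at least 0.1, those of Kcnj3, Kcnj11, Kcnj5, Kcnip2, Kcng2 and Kcnd2 had an SD of at least 0.3 over the 3 ApoE KO arrays, a choice made after the values were seen. Kcnj3, which with Kcnj5 forms the acetylcholine-activated channel of the atria, read -0.08, 0.97 and 0.79 in ApoE KO aortas, against -0.02, -0.20 and 0.16 in C57BL6 aortas. Kcnj5 read -0.16, 0.74 and 0.58 in ApoE KO aortas, against -0.08, -0.44 and 0.34 in C57BL6 aortas. ApoE KO replicates 2 and 3 were high in both genes, and replicate 1 lay among the wild type values. A second Kcnj5 probe, at a reference intensity of 0.0733, read 0 on all 6 arrays. Kcnd2 and Kcnip2, the pore and the auxiliary protein of the transient outward current of mouse heart, read 0.10, 0.49 and 0.78, and -0.15, 0.14 and 0.68, in ApoE KO aortas. In C57BL6 aortas Kcnd2 read 0.19, -0.22 and 0.00, and Kcnip2 read 0.07, -0.23 and -0.08. Kcng2, an electrically silent modifier subunit, read -0.08, 0.48 and 0.64 in ApoE KO aortas, against -0.08, -0.52 and 0.14 in C57BL6 aortas. Its second probe, also at 0.0733, had a log2 fold change of -0.19, against 0.50 for the brighter one. Kcnj11, the pore Kir6.2 of cardiac and pancreatic ATP-sensitive channels, differed in that ApoE KO replicate 1 was low (-0.75) while the other 5 arrays lay between -0.03 and 0.15.

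The 6 genes were not called over all probes (adjusted p 0.26 to 0.645). Among the brighter probes, Kcnj3 passed without ApoE KO replicate 1 (adjusted p 0.00176, against 0.0975 with all arrays), and Kcng2 without ApoE KO replicate 1 (0.0269) or C57BL6 replicate 3 (0.0332, against 0.0966). Cardiac markers also differed among the arrays of a group. The median log2 ratio of 8 cardiac markers was -0.58, 0.39 and 0.66 in ApoE KO aortas, against 0.00, -0.71 and 0.00 in C57BL6 aortas, and their summed intensity was 15.1, 29.3 and 27 in ApoE KO aortas, against 16.3, 14.1 and 23 in C57BL6 aortas. None of the 8 was called in either direction. Myh6, Tnnt2, Tnni3, Actc1 and Myl2 were lowest on ApoE KO replicate 1 and C57BL6 replicate 2, as the median was, but Nppa, Myl7 and Ryr2 were not. Nppa read 0.26, 0.50 and 0.63 in ApoE KO aortas and 0 on each C57BL6 array (adjusted p 0.0509 in limma). The part of heart muscle in these channel values was not tested.

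**Figure D4:**
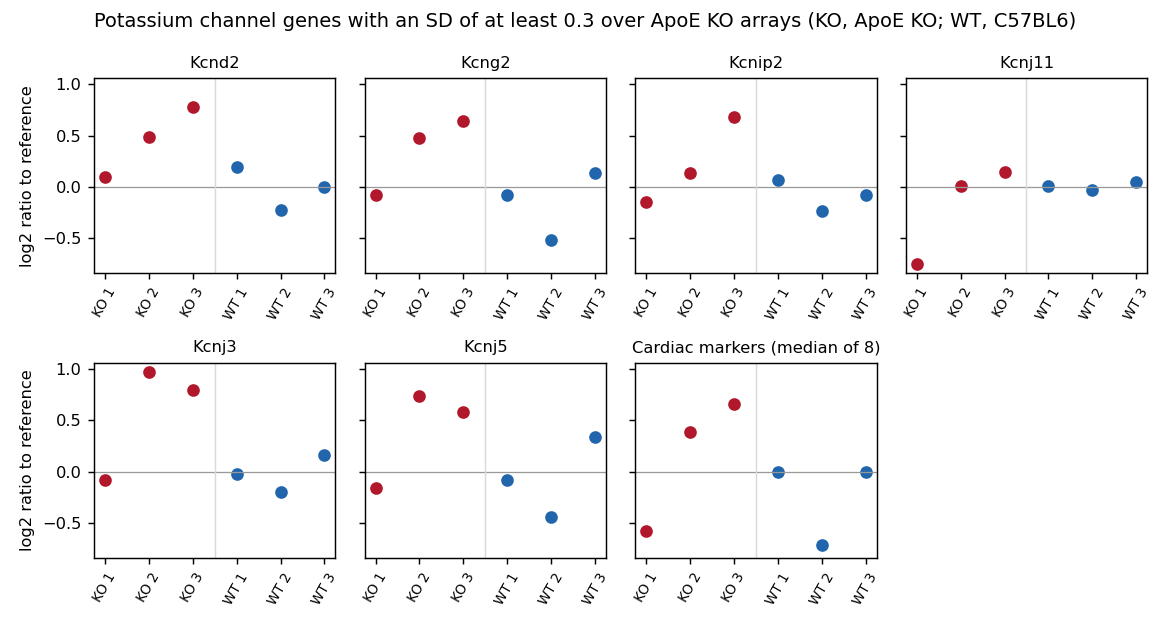
Log2 ratio to the reference on each array for the 6 potassium channel genes with an SD of at least 0.3 over ApoE KO arrays, and for the median of 8 cardiac markers, with ApoE KO replicates at left and C57BL6 replicates at right of each panel. ApoE KO replicate 1 and C57BL6 replicate 2 are the lowest arrays for the median of the cardiac markers (-0.58 and -0.71), and ApoE KO replicates 2 and 3 are the highest for Kcnj3 and Kcnj5.

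Other genes of potassium transport, 27 auxiliary subunits, pumps and cotransporters, were set beside the channels. Of the 26 measured, 5 were called higher and 1 lower in limma (23.1%, against 14.1% of all probes), a difference that was not tested. Each gene was read from its brightest probe, so the share over all probes is not a like background. Among the higher were Tmem175, a potassium channel of lysosomes (log2 fold change 0.38), the sodium pump beta subunit Atp1b1 (0.59) and the potassium-chloride cotransporter Slc12a7 (0.23). Lrrc38, a gamma subunit of BK channels, was called lower at -0.43 on a probe with a reference intensity of 0.0967 and a difference of 2.5 rounding steps. Tmem175 read 0.43, 0.34 and 0.37 in ApoE KO aortas and 0 on each C57BL6 array, at a reference intensity of 0.473. Among the 11 measured at a reference intensity of at least 0.5, 2 were called higher and 2 lower in the fit over such probes. Of all probes of that intensity, 18.2% were called higher and 24.9% lower. The 2 lower were Dpp6, a partner of Kv4 channels (-0.24, adjusted p 0.0138), and Tmem38b (-0.34, 0.044). Hcn2, a pacemaker channel, was at -0.11 and did not pass (0.0664).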

How the data were processed

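RNA of 6 aortas was measured against a common reference on dual-colour Agilent arrays. Groups follow the Cy5 channel's genotype label, and replicate numbers the titles. Per the labels' protocols, RNA came from a Trizol extraction, and an input of 100 ng went through repeated amplification, which may narrow differences. The submitters' processing notes name Agilent Feature Extraction, version 8.5.1.1. The handling of background and dyes is not stated in those notes or the labels.

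For 39556 probes the authors deposited a log10 ratio per array, own RNA over reference, turned into log2 here. From the deposited intensity table, in arbitrary units scaled by the authors, the reference channel of the C57BL6 arrays was used, with 99.99% of its values on a step of 0.01, while 15 of its 18 value columns were left aside. To settle scale and direction, reference intensity times the ratio was tested for falling on that step within 0.1 of a step, in 1551 non-zero C57BL6 ratios of dim probes with equal reference intensities. It did for 100%, against 47.5% with the sign turned and 1.42% if read as log2. For ApoE KO arrays the direction rests on the same dye labels. Each array has a median log2 ratio of 0, but many exact zeros would give that too, and centring is unknown. Not tested were 194 probes lacking a value on some array. The SD of the log2 ratio was 0.236 to 0.259 on ApoE KO arrays and 0.0759 to 0.136 on C57BL6 arrays. Precision is limited by having 6 arrays. C57BL6 replicates 2 and 3 share a source number, and the SD of their difference was 0.173 (log2). This cannot show whether they came from the same animal, since repeated arrays of the same RNA also differ. If they did, n = 3 would count arrays and not animals in that group, and its standard errors would be too small.

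The comparison used limma 3.58.1 under R 4.3.3 (lmFit, eBayes), without trend or block, over all 39362 probes, and adjusted by the Benjamini-Hochberg method over all of them (2-sided). The fit was repeated at a reference intensity of at least 0.5, where a step of 0.01 is at most 2% of the level. Prior degrees of freedom were 0.55 and 3.43, beside 4 residual ones. An exact permutation test of 3 against 3 cannot go below 0.1. Probe symbols were matched to RefSeq (GRCm38.p6), 27 by accession and 98 by symbol, with none renamed, and 5 probes that RefSeq places in Kcn genes under other deposited symbols were not counted. Markers and other genes were read from 1 probe each, the one with the highest reference intensity. Named were called probes, the brightest of each subfamily, a list of vascular and immune channels and genes whose probes disagree. Members and lists were chosen with earlier results of these data known, and the minimum of 3 rounding steps and 1 filter were added after seeing the data. Some genes are counted but not reported singly or plotted here. Alternatives were scaling, filters on dim probes, handling of several probes, variance models, a replicate block and leaving out each array. Equal replicate numbers were not treated as pairs, since the labels give no shared animal, litter or day.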

Additional observations from a re-analysis of the deposited data

How the results depend on the processing

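Against 8 potassium channel probes called higher in limma, 2 were called at a reference intensity of at least 0.5, where fewer probes were tested, 3 at a level over both groups of at least 0.5 (a filter chosen after seeing the data) and 4 with a replicate block. Against 10 called lower there were 3 after quantile normalization, 3 with the replicate block and 16 with array weights. Leaving out 1 array gave 6 to 8 higher and 4 to 13 lower, with 5 lower without ApoE KO replicate 2 or 3 or C57BL6 replicate 2 and 4 without C57BL6 replicate 1. The 10 calls among brighter probes ranged from 7 (quantile normalization) to 13 (array weights), and from 9 to 11 with 1 array left out. The replicate block is no pairing by design, and deviations of same-numbered arrays correlated at 0.081, -0.478 and -0.154 over 9485 probes. Those of differently numbered arrays ranged from -0.432 to 0.621, the highest being ApoE KO replicate 2 with C57BL6 replicate 3. The source of such shared deviations was not tested. With it Kcnc4 (adjusted p 0.0994) and Kcnj10 (0.0658) lost calls that they kept under the other alternatives in which they were tested. It also ended the calls of Kcnab1 (0.136), Kcnmb1 (0.0586) and Kcnn1 (0.13) over all probes and of Kcnq1 (0.0707) among the brighter ones. Averaging the probes of a symbol gave 0.96 for Kcnk13 and so turned the sign of its dim probe. Over all probes the 5537 calls became 1818 after quantile normalization, 2730 with the replicate block and 3756 to 5257 with 1 array left out. Over 61 named probes and 16 alternatives, 776 results stayed called in the same direction or stayed uncalled, 63 lost the call, 15 gained it and 1 reversed. The cause of the other changes was not tested. Rounding limits what dim probes can show.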
